A study of Mus musculus with 6 samples.

Results

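MHC class I and class II antigen presentation was described here through 40 mouse genes: the chains of both classes, the machinery that loads them, the transcription factors that control them, and the ligands displayed beside them. They were listed by gene symbol, with earlier results of these data known. Of the 40 genes, 35 had a probe set that names no other gene, out of 19937 such genes on the array. H2-K1, H2-D1 and H2-T23 of class I, and H2-DMb1 and H2-DMb2 of class II, lie only on probe sets that name several genes and were not analysed here. Where a gene had more than 1 such probe set, the one brightest on average across the 6 arrays stands for it.

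Class I molecules sit on nearly all nucleated cells and show peptides made inside the cell to CD8+ T cells. The proteasome cuts these peptides, the TAP transporter moves them into the endoplasmic reticulum, and a loading complex places them on a heavy chain paired with beta-2 microglobulin. Class II molecules show peptides from endocytosed proteins to CD4+ T cells and are made mainly by dendritic cells, macrophages and B cells under the transactivator CIITA. Interferon gamma induces both classes.

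The tumors came from 4T1, a mammary carcinoma line of BALB/c origin, of which 750000 cells were injected into a mammary gland of each Balb/C mouse. Treated mice received 40 mg/kg TKI258 by mouth each day for 14 days, starting 7 days after the cells, and the other mice received water on the same schedule. TKI258 (dovitinib) inhibits several receptor tyrosine kinases, among them the receptors of FGF, VEGF and PDGF and FLT3, a receptor that dendritic cells need. There were 3 tumors per group, labelled biological replicates, each on 1 Affymetrix Mouse Gene ST array. All values are log2 RMA signals (robust multi-array average, as deposited), so a difference of 1 is a doubling, and levels of different genes are not comparable with each other because they come from different probes.

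Whole tumors were profiled, and 1 array stood apart in immune markers. Cd79b, a signaling chain of the B cell receptor, had a signal of 5.55, 5.69 and 9.76 in TKI258 replicates 1, 2 and 3, against 7.68, 5.57 and 5.65 in water replicates 1, 2 and 3. TKI258 replicate 3 was thus the array with the highest Cd79b, and water replicate 1 was second. Correlations between arrays were 0.981 to 0.993 within TKI258 and 0.988 to 0.992 within water. The tumor epithelial keratin Krt8 was high in every tumor, at 11.77, 11.74 and 11.55 in TKI258 tumors and 11.82, 11.88 and 11.74 in water tumors. It was 1 of 8 epithelial markers, whose mean was 8.99, 8.79 and 8.87 in TKI258 tumors and 8.72, 8.22 and 8.69 in water tumors. Of these markers, 6 were higher and 2, Krt8 included, were lower in TKI258 tumors, and 0 passed the adjusted threshold of 0.05 (limma). Each comparison is given with all arrays and without TKI258 replicate 3. In bulk tumors, fewer cells of a type and less RNA per cell cannot be told apart.

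No antigen presentation gene passed the test in either setting. With all arrays, 0 of the 35 genes had an adjusted p under 0.05 in limma with Benjamini-Hochberg adjustment over all probe sets, beside 0% of the 34760 probe sets. At an unadjusted p under 0.05, limma gave 2 genes higher and 1 lower in TKI258 tumors, where 3.79% of all genes were higher and 3.35% lower by the same rule. The groups did not overlap for 2 genes that were higher and 2 that were lower in TKI258 tumors, beside 8.66% and 6.49% of all genes. The median difference over the 35 genes was 0.03, and that over all genes was 0.02.

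Without TKI258 replicate 3 the differences of the same genes were mostly below 0. Again 0 of the 35 genes had an adjusted p under 0.05 (limma), beside 0% of probe sets. At an unadjusted p under 0.05, 1 gene was higher and 8 were lower in the remaining TKI258 tumors, beside 3.44% and 3.38% of all genes. Groups did not overlap for 3 genes that were higher and 11 that were lower, beside 15.8% and 10.6% of all genes. Differences were above 0 for 21 genes and below 0 for 14 with all arrays, against 9 above and 26 below 0 without that tumor. The median difference was then -0.18 over the 35 genes and 0.03 over all genes. TKI258 replicate 3 held the highest value of 30 of the 35 genes, a place it held for 26.3% of all genes, and 28 of the 35 had a larger SD among TKI258 than among water tumors, beside 54.3% of all genes.

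**Figure D1:**
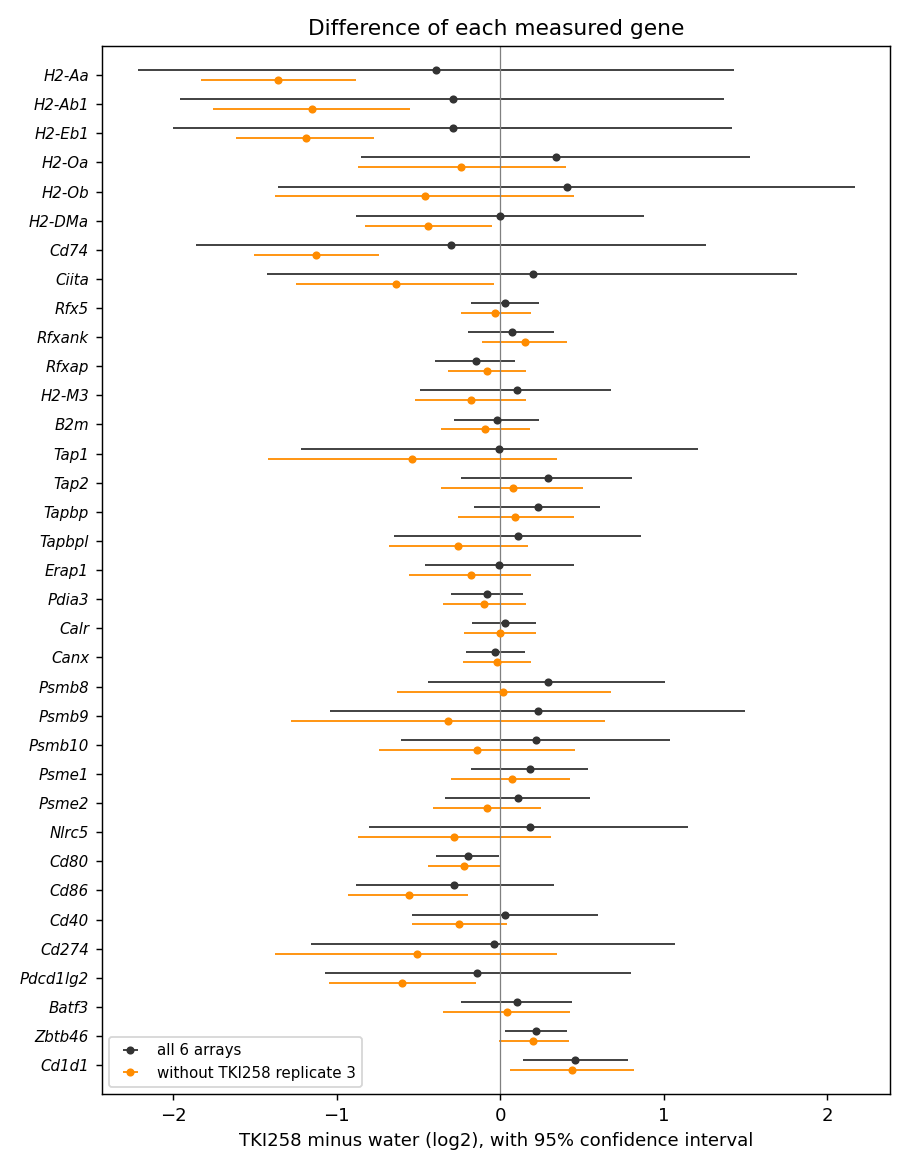
Difference in log2 signal between TKI258 and water tumors (x axis) for each measured gene (y axis, ordered by role), with all arrays and without TKI258 replicate 3; points are limma estimates and bars 95% confidence intervals. The class II genes move from differences of -0.39 to 0.41 with all arrays to -1.36 to -0.24 without that tumor.

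The class II chains varied widely among TKI258 tumors, with SDs of 1.67 for H2-Aa and 1.57 for H2-Eb1, though less than the B cell marker Cd79b with 2.39. H2-Aa, the alpha chain of the I-A molecule, had a signal of 8.59, 8.51 and 11.45 in TKI258 tumors, against 9.76, 9.69 and 10.28 in water tumors. Its partner H2-Ab1, the I-A beta chain, read 7.83, 7.62 and 10.31 in TKI258 tumors and 8.57, 8.72 and 9.36 in water tumors. For H2-Eb1, the beta chain of I-E, the values were 8.45, 8.38 and 11.14 in TKI258 tumors and 9.46, 9.44 and 9.93 in water tumors. In all of these genes TKI258 replicates 1 and 2 were the lowest of the 6 tumors, replicate 3 was the highest, and the water tumors lay between them. Cd74, the invariant chain that occupies the class II groove and guides the molecule to endosomes, followed the same order, with 8.66, 8.77 and 11.20 in TKI258 tumors and 9.66, 9.76 and 10.11 in water tumors.

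With all arrays the class II chains did not differ beyond the spread between tumors. H2-Aa averaged 9.52 ± 1.67 in TKI258 tumors and 9.91 ± 0.32 in water tumors (SD, n = 3 each), a difference of -0.39 ± 0.76 (SE) with a 95% interval of -2.22 to 1.43 and an adjusted p of 0.890 (limma). The differences were -0.29 ± 0.70 for H2-Ab1, -0.29 ± 0.72 for H2-Eb1 and -0.30 ± 0.65 for Cd74. These intervals span more than a doubling in either direction for H2-Aa, so neither a large gain nor a large loss could be seen at this number of tumors.

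Without TKI258 replicate 3 the same genes were lower in both remaining TKI258 tumors than in all 3 water tumors. All 7 measured class II chain and loading genes were lower, with a median difference of -1.13, and for 5 of them the groups did not overlap, beside 10.6% of all genes that were lower without overlap. H2-Aa differed by -1.36 ± 0.19 (SE), a level 2.56-fold lower, with a 95% interval of -1.83 to -0.88, an unadjusted p of 0.00048 and an adjusted p of 0.467 (limma, 2 against 3 tumors). The difference was -1.15 ± 0.25 for H2-Ab1 (2.23-fold lower), -1.19 ± 0.17 for H2-Eb1 (2.29-fold lower) and -1.13 ± 0.16 for Cd74 (2.19-fold lower), with adjusted p-values of 0.544, 0.467 and 0.467 (limma). None passed the adjusted threshold. The tumor was left out for its Cd79b level, but it also held the highest value of all 7 class II chain and loading genes. Leaving it out thus lowers the TKI258 mean of each, and the part of B cells in these values was not tested.

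The peptide editors of class II divided into different patterns. H2-DMa, a chain of the DM molecule that exchanges peptides on class II, had 7.01, 6.90 and 8.29 in TKI258 tumors and 7.14, 7.42 and 7.63 in water tumors, and it followed the order of the chains. H2-Oa and H2-Ob encode DO, an inhibitor of DM that is made largely by B cells. H2-Ob had 5.48, 5.20 and 7.95 in TKI258 tumors and 6.57, 5.42 and 5.42 in water tumors, and H2-Oa had 5.26, 5.41 and 7.08 in TKI258 tumors and 6.06, 5.19 and 5.46 in water tumors. Both were highest in TKI258 replicate 3 and next highest in water replicate 1, the tumors with the most Cd79b signal, and lay between 5.19 and 5.48 in the other 4 tumors. Their mean signals were low, at percentiles 44.5 for H2-Ob and 40.3 for H2-Oa among all probe sets, and a low-signal filter removed both. Their differences were 0.41 ± 0.74 and 0.34 ± 0.50 with all arrays, and -0.46 and -0.24 without TKI258 replicate 3. H2-DMa differed by 0.00 ± 0.37 with all arrays and by -0.44 without it (adjusted p = 0.667, limma).

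**Figure D2:**
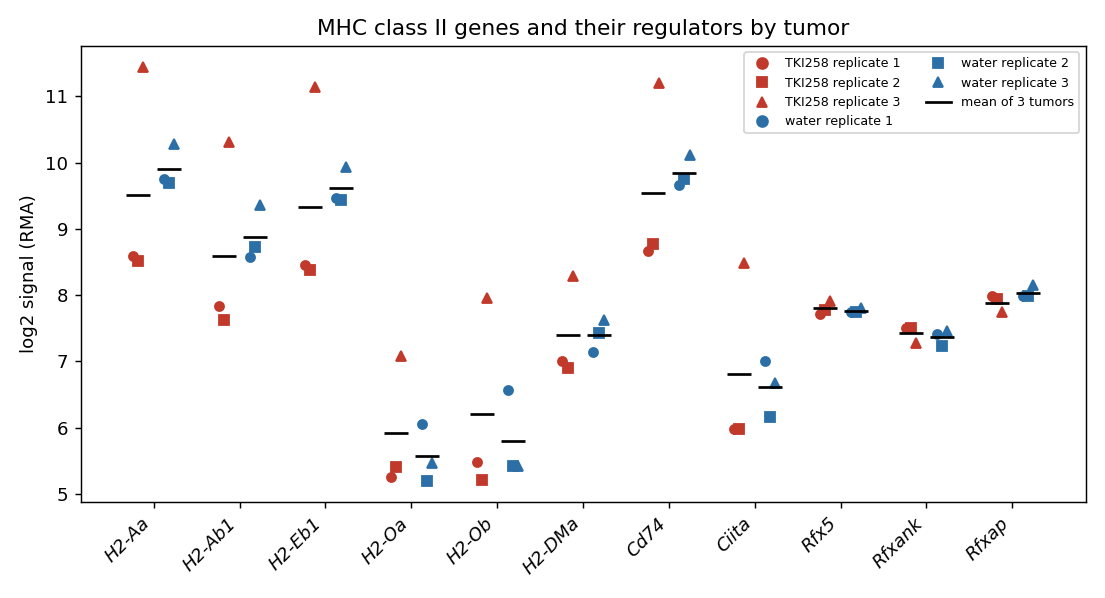
Log2 signal (y axis) of each class II gene and class II regulator in every tumor, TKI258 tumors left of water tumors, 1 point per tumor and a black bar at each group mean. TKI258 replicate 3 is the highest point of all 7 chain and loading genes, and replicates 1 and 2 lie below all water tumors for 5 of them.

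Class II promoters carry a conserved module in which an X box, bound by the RFX complex, is followed by a Y box, an inverted CCAAT motif bound by NF-Y. The promoter letters of the class II genes that hold the module are shown because Ciita acts through it and these genes are the ones compared here. The sequences come from RefSeq on GRCm38.p6, the C57BL/6J reference and not the Balb/C allele, and end just before the gene start. Capitals mark the X box core GCAAC and, after it, the Y box ATTGG.
H2-Aa (chr17:34287824-34287924, minus strand): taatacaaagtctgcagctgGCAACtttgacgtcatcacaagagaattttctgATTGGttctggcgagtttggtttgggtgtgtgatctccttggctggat
H2-Eb1 (chr17:34305756-34305866, plus strand): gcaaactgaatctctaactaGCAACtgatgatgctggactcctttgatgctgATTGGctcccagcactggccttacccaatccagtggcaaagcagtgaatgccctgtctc
H2-Oa (chr17:34092283-34092378, plus strand): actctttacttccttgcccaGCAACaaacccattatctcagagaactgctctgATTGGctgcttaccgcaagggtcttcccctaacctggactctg
H2-Ob (chr17:34238798-34238904, plus strand): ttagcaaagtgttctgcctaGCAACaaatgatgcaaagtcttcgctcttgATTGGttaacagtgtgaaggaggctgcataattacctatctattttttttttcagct

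In these promoters the Y box starts 28, 27, 28 and 25 bases after the X box core ends, in the order shown, and the core lies 81, 91, 76 and 87 bases before the start. The search covered windows of 300 bases, 250 before to 50 after the start, on both strands, for GCAAC followed by ATTGG on the same strand after 10 to 35 bases. It found the pair in 4 of 8 windows of class II genes, in 0 of 25 windows of the other genes, and in 1.22% of all 32851 promoter windows. GCAAC alone was in 35.2% and ATTGG alone in 37.4% of all windows. Windows were found for 30 of the 40 genes. H2-Ab1 and Cd74 had none, so whether their promoters hold the pair was not searched. The pair did not sort the genes by their values: the chains H2-Aa and H2-Eb1 and the DO genes all hold it, and their values follow the different orders given above.

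The regulators of class II differed less between tumors than the chains, except for Ciita. Ciita, the master transactivator, had 5.97, 5.97 and 8.49 in TKI258 tumors, against 7.01, 6.16 and 6.67 in water tumors. It was highest in TKI258 replicate 3, then in water replicate 1, and lowest in TKI258 replicates 1 and 2. Its difference was 0.20 ± 0.68 with all arrays and -0.64 without TKI258 replicate 3 (adjusted p = 0.674, limma), or -0.44 when water replicate 1 was left out as well.

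Rfx5, Rfxank and Rfxap encode the RFX complex, which is made in nearly all cells and binds the X box. Their differences with all arrays were 0.03 ± 0.09, 0.07 ± 0.11 and -0.15 ± 0.10. Rfxap had 7.98, 7.94 and 7.74 in TKI258 tumors and 7.98, 7.98 and 8.15 in water tumors, so its groups did not overlap, but only by a margin below the 2 decimals given (adjusted p = 0.704, limma). In TKI258 replicate 3, Rfxap and Rfxank were at their lowest or next to lowest value while Ciita was at its highest.

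Class I differed little between the groups. Among the 15 measured class I genes (chains, loading and immunoproteasome), 10 differences were above 0 and 5 below, from -0.08 to 0.29 with a median of 0.11, and the groups overlapped for all 15. B2m, the light chain of every class I molecule, had 12.63, 12.48 and 12.77 in TKI258 tumors and 12.52, 12.68 and 12.73 in water tumors, a difference of -0.02 ± 0.11 with a 95% interval of -0.28 to 0.24 (adjusted p = 0.970, limma). H2-M3, a nonclassical heavy chain that presents N-formylated peptides, had 8.00, 7.88 and 8.77 in TKI258 tumors and 7.99, 8.03 and 8.35 in water tumors (difference 0.10 ± 0.25). B2m and H2-M3 were the only class I chains among these 15 genes, and the classical heavy chains H2-K1 and H2-D1 are not covered. Outside the 15, 9 other class I heavy chains were measured. With all arrays their differences ran from -0.21 to 0.20, and the groups overlapped for all 9. For 2 of the 9, TKI258 replicates 1 and 2 were the lowest tumors, as for the class II chains. H2-T24, given below, was 1 of them.

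The B2m promoter is shown because it holds an interferon response element, the kind of site through which interferons act on class I genes. It is the RefSeq sequence on GRCm38.p6, 5′ to 3′ as transcribed, and the capitals mark a match to the interferon response element (GAAA, any 2 bases, GAAA) that begins 139 bases before the start.
B2m (chr2:122147528-122147686, plus strand): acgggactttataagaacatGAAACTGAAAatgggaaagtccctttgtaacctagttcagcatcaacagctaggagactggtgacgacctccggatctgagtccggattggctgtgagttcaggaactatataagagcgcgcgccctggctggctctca

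Matches to this element on either strand were in 4 of 33 windows of antigen presentation genes (B2m, Erap1, H2-T23 and Psme1) and in 3.44% of all windows. The gamma activated site TTCNNNGAA was in 4 of the 33 windows and in 8.3% of all windows.

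The peptide loading genes fell into a stable and a variable set. Calr and Canx, chaperones that fold new heavy chains, and Pdia3, a thiol oxidoreductase of the loading complex, differed by 0.03 ± 0.08, -0.03 ± 0.08 and -0.08 ± 0.09. Tapbp encodes tapasin, which bridges TAP and the heavy chain, and differed by 0.23 ± 0.16. Erap1, an aminopeptidase that trims peptides in the endoplasmic reticulum, differed by -0.01 ± 0.19. Tap2, a transporter subunit, had 8.80, 8.82 and 9.44 in TKI258 tumors and 8.47, 8.69 and 9.04 in water tumors, a difference of 0.29 ± 0.22 (adjusted p = 0.731, limma).

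Tap1, the other transporter subunit, varied far more from tumor to tumor. It had 8.82, 8.63 and 10.32 in TKI258 tumors, against 8.75, 9.05 and 9.98 in water tumors, a difference of -0.01 ± 0.51 (95% interval -1.22 to 1.21). Replicate 3 was the highest in each group. Tapbpl, the tapasin-related peptide editor TAPBPR, shared that order, with 7.53, 7.41 and 8.56 in TKI258 tumors and 7.47, 7.69 and 8.01 in water tumors (difference 0.11 ± 0.32).

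Psmb8, Psmb9 and Psmb10 encode the catalytic subunits of the immunoproteasome, which replace the constitutive ones under interferon gamma. Psmb9 had 8.98, 8.71 and 10.49 in TKI258 tumors and 8.59, 8.97 and 9.93 in water tumors, and Psmb8 had 9.78, 9.63 and 10.49 in TKI258 tumors and 9.18, 9.76 and 10.10 in water tumors. Psmb10 had 9.15, 9.07 and 10.19 in TKI258 tumors and 8.82, 9.26 and 9.68 in water tumors. For these catalytic subunits replicate 3 was again highest in each group, and the differences were 0.23 ± 0.53, 0.29 ± 0.30 and 0.22 ± 0.34. Psme1 and Psme2, the subunits of the proteasome activator PA28, differed by 0.18 ± 0.15 and 0.11 ± 0.19, and the highest water tumor was replicate 3 for Psme1 and replicate 2 for Psme2.

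Nlrc5, the class I counterpart of Ciita, was read by 19 probe sets. On its brightest probe set it had 9.96, 9.69 and 11.21 in TKI258 tumors and 9.85, 9.91 and 10.57 in water tumors, a difference of 0.18 ± 0.41 (adjusted p = 0.910, limma). All 19 probe sets were highest in TKI258 replicate 3, all 19 had water replicate 3 as the highest water tumor, and their differences ran from -0.01 to 0.27. These probe sets lie on 1 gene and share each tumor's RNA, so they are not independent measurements of the tumors.

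**Figure D3:**
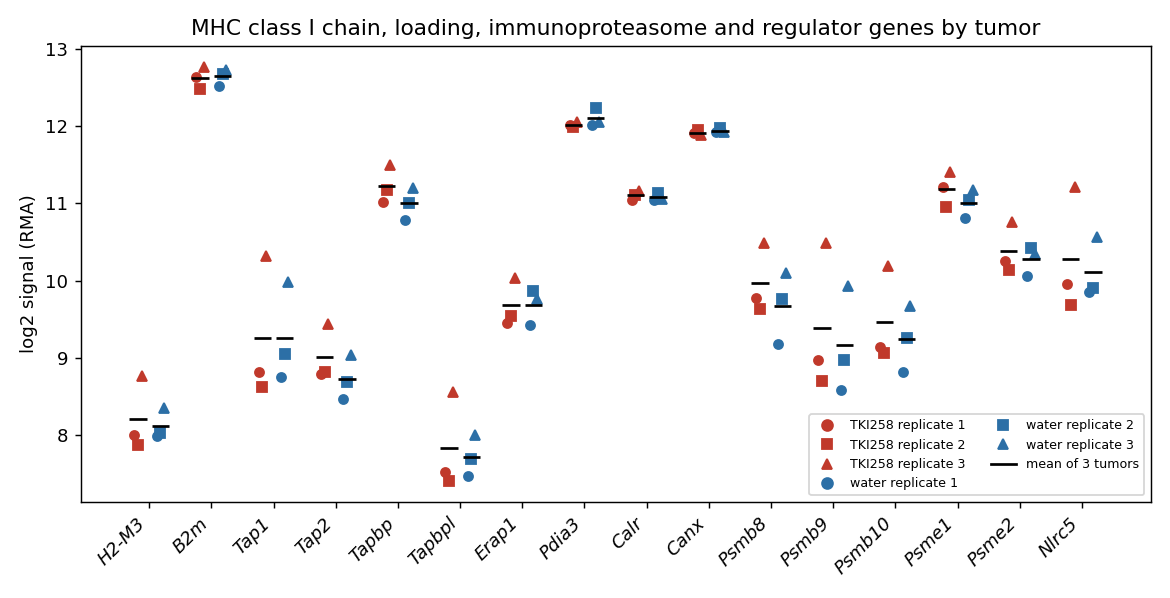
Log2 signal (y axis) of the class I genes in every tumor, TKI258 tumors left of water tumors, 1 point per tumor and a black bar at each group mean. Tap1, Psmb9 and Nlrc5 are highest in TKI258 replicate 3 and next highest in water replicate 3, while B2m stays between 12.48 and 12.77.

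Water replicate 3 was the highest water tumor for 10 of the 15 class I genes, as it was for 35% of all genes, while its Cd79b signal of 5.65 was near the lowest. Water replicate 1, with the highest Cd79b of the water tumors, was the lowest water tumor for all 15, and for 26.8% of all genes. Irf1, an interferon-induced transcription factor named here after its values were seen, had 9.60, 9.50 and 10.78 in TKI258 tumors and 9.42, 9.88 and 10.50 in water tumors. As for Tap1, replicate 3 was the highest tumor of each group.

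The classes were contrasted by the mean log2 signal of the 15 class I genes and of the 7 class II chain and loading genes in each tumor. The class I mean was 10.04, 9.97 and 10.65 in TKI258 tumors and 9.86, 10.12 and 10.36 in water tumors. The class II mean was 7.33, 7.26 and 9.63 in TKI258 tumors and 8.17, 7.95 and 8.31 in water tumors. Class I minus class II was 2.71, 2.71 and 1.02 in TKI258 tumors, against 1.68, 2.17 and 2.04 in water tumors. TKI258 replicates 1 and 2 had the widest gap of the 6 tumors and replicate 3 the narrowest. The size of the gap itself depends on the probes, and only its differences between tumors are read here.

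By group, the gap averaged 2.15 ± 0.97 in TKI258 tumors and 1.97 ± 0.25 in water tumors (SD, n = 3 each), a difference of 0.18 that is smaller than the spread between TKI258 tumors. Without TKI258 replicate 3 it averaged 2.71 in 2 TKI258 tumors and 1.97 in water tumors, a difference of 0.74. That difference came from class II, whose mean differed by -0.85, whereas the class I mean differed by -0.11. With all arrays the differences were -0.07 for class II and 0.11 for class I. No test was made of these means because the genes in them were chosen with results of these tumors known.

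**Figure D4:**
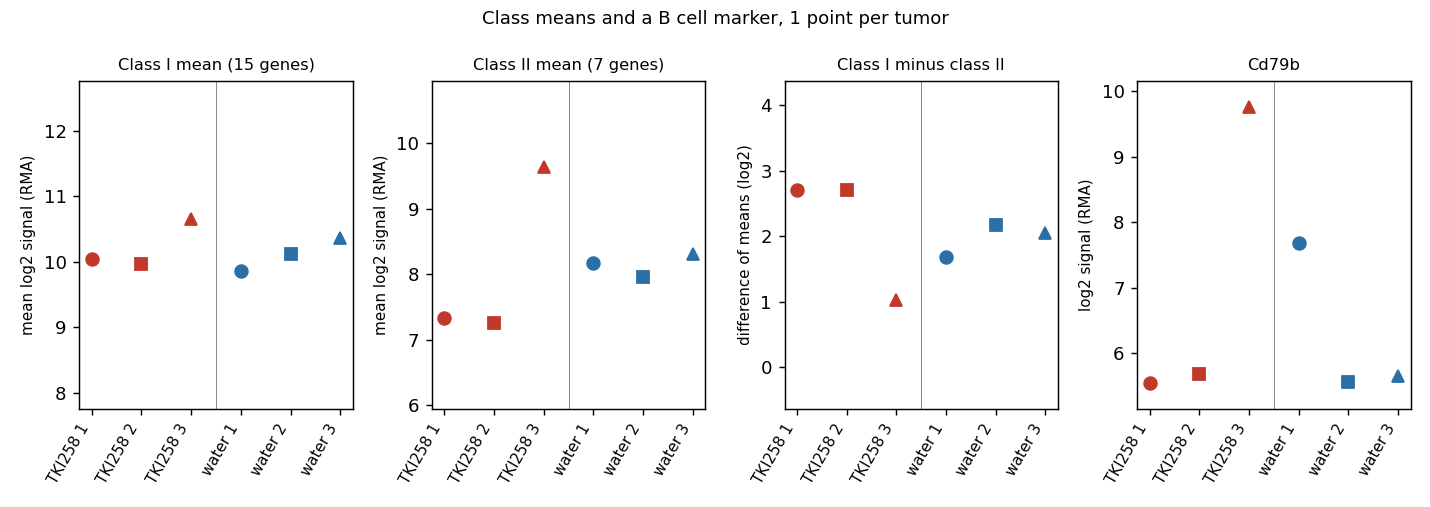
Mean log2 signal of the class I genes, mean of the class II genes, their difference, and the B cell marker Cd79b (y axes, each spanning 5 log2 units) in each tumor, TKI258 tumors left of water tumors. The gap between the classes is 2.71 in TKI258 replicates 1 and 2, 1.02 in replicate 3 and 1.68 to 2.17 in water tumors.

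The costimulatory and checkpoint ligands were mostly lower in TKI258 replicates 1 and 2. Cd86, a ligand of CD28 on antigen-presenting cells, had 7.38, 7.23 and 8.16 in TKI258 tumors and 7.62, 8.00 and 7.98 in water tumors, a difference of -0.28 ± 0.25, or -0.56 without TKI258 replicate 3 (adjusted p = 0.590, limma). Pdcd1lg2, which encodes the PD-1 ligand PD-L2, had 5.46, 5.16 and 6.71 in TKI258 tumors and 5.61, 6.04 and 6.09 in water tumors, with differences of -0.14 ± 0.39 and, without that tumor, -0.60. For both, replicates 1 and 2 lay below every water tumor.

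Cd274, which encodes PD-L1, had 8.26, 7.91 and 9.49 in TKI258 tumors and 8.23, 8.26 and 9.30 in water tumors. Its groups overlapped and replicate 3 was the highest tumor of each, with a difference of -0.04 ± 0.47. Cd40, the receptor through which CD4+ T cells activate antigen-presenting cells, differed by 0.03 ± 0.24, or by -0.25 without TKI258 replicate 3.

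Cd80, the other CD28 ligand, was lower in every TKI258 tumor, but by little. It had 6.36, 6.43 and 6.45 in TKI258 tumors and 6.67, 6.61 and 6.55 in water tumors, a difference of -0.20 ± 0.08 with an unadjusted p of 0.0454 and an adjusted p of 0.615 (limma). A second probe set of Cd80 gave a difference of 0.12 ± 0.12, in the opposite direction.

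Cd1d1 and Zbtb46 were the 2 of the 35 genes that separated the groups in the upward direction, beside 8.66% of all genes. Cd1d1 encodes the class I-like molecule that presents lipids to NKT cells. It had 7.78, 7.68 and 7.80 in TKI258 tumors, against 7.57, 7.16 and 7.15 in water tumors, a difference of 0.46 ± 0.13 with a 95% interval of 0.14 to 0.78, an unadjusted p of 0.0111 and an adjusted p of 0.574 (limma). All 3 TKI258 tumors lay above all 3 water tumors, and without TKI258 replicate 3 the difference was 0.44. Unlike the class II genes, Cd1d1 was nearly equal in the 3 TKI258 tumors.

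Zbtb46, a transcription factor of classical dendritic cells that is also made by endothelial cells, had 6.64, 6.57 and 6.66 in TKI258 tumors and 6.44, 6.37 and 6.39 in water tumors. The difference was 0.22 ± 0.08, with an unadjusted p of 0.0269 and an adjusted p of 0.595 (limma), and it was 0.20 without TKI258 replicate 3. Batf3, which cross-presenting dendritic cells need, differed by 0.10 ± 0.14 and its groups overlapped.

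The rest of the pathway was followed through 67 other measured genes: further class I and II chains, lysosomal proteases, constitutive proteasome subunits, interferon gamma signaling, T cell ligands and dendritic cell genes. None of the 67 passed the adjusted threshold (limma), 38 were higher and 29 lower in TKI258 tumors, and 1, a lower one, had an unadjusted p under 0.05, beside 3.35% of all genes lower and 3.79% higher by that rule. That gene was Itgax, the dendritic cell integrin CD11c, with 6.95, 6.64 and 7.82 in TKI258 tumors and 7.76, 7.95 and 8.26 in water tumors, a difference of -0.85 ± 0.31 (adjusted p = 0.599, limma). The groups of Itgax overlapped only through TKI258 replicate 3.

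The next smallest p-values among these genes belonged to Nfyb, a subunit of the Y box factor NF-Y (-0.24 ± 0.10), and Clec9a, a receptor of cross-presenting dendritic cells (-0.34 ± 0.19). They were followed by the lysosomal proteases Ctsb (-0.21 ± 0.12) and Lgmn (-0.21 ± 0.12) and the constitutive proteasome subunit Psmb7 (-0.13 ± 0.08). Clec9a was read near the lower end of the array's signal, at 3.48, 3.51 and 4.19 in TKI258 tumors and 4.04, 4.08 and 4.09 in water tumors. It shares with Itgax and the class II chains that TKI258 replicates 1 and 2 were the lowest tumors.

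H2-Ea, the alpha chain of I-E and the partner of H2-Eb1, is given here after its values were seen. It had 8.61, 8.47 and 11.72 in TKI258 tumors and 10.01, 9.88 and 10.41 in water tumors, a difference of -0.50 ± 0.83 with all arrays and -1.56 without TKI258 replicate 3 (adjusted p = 0.399, limma). The order of its tumors matched that of H2-Eb1. The class II chain H2-Eb2 differed by 0.22 ± 0.36 with all arrays and -0.15 without TKI258 replicate 3, and its groups overlapped in both settings. The class I heavy chain H2-T24 had 6.87, 6.67 and 8.73 in TKI258 tumors and 7.73, 7.59 and 7.56 in water tumors. TKI258 replicates 1 and 2 were thus its lowest tumors and replicate 3 its highest. Its difference was -0.21 ± 0.51 with all arrays and -0.86 without TKI258 replicate 3 (adjusted p = 0.467, limma). Without TKI258 replicate 3, 22 of the 67 genes were higher and 45 lower, and 10 of the lower ones had an unadjusted p under 0.05, beside 3.38% of all genes.

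Markers of several immune cell types had their highest values in the same tumor as the class II genes. The mean of 13 measured B cell markers was 5.01, 5.16 and 8.65 in TKI258 tumors and 6.84, 5.04 and 5.04 in water tumors, and that of 15 T and NK cell markers was 5.51, 5.49 and 7.56 in TKI258 tumors and 6.36, 5.62 and 5.86 in water tumors. All 13 B cell markers were highest in TKI258 replicate 3, as were 26.3% of all genes. All 13 had water replicate 1 as the highest water tumor, as did 6772 of all 19937 genes. Cd79b, by which these tumors were ranked, is in this list, so its own place was fixed in advance. A list for lymph node stroma and high endothelium (7 measured) also holds the lymphocyte genes Cxcr5 and Ltb. It averaged 6.06, 6.21 and 8.60 in TKI258 tumors and 7.57, 5.63 and 5.93 in water tumors. Glycam1, a ligand for lymphocyte homing on high endothelial venules, varied most within it. It read 5.26, 6.12 and 12.06 in TKI258 tumors and 10.32, 4.89 and 4.78 in water tumors. Other genes of the list varied far less. Madcam1 had 5.27, 5.27 and 5.77 in TKI258 tumors and 5.48, 4.96 and 5.12 in water tumors. Chst4 had 4.93, 4.77 and 5.40 in TKI258 tumors and 5.17, 4.52 and 4.96 in water tumors. RMA signals have no true 0, so no marker can be said to be absent. The part of these cells in the class II values was not tested.

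Leaving out water replicate 1 as well, the water tumor with the highest Cd79b, set TKI258 replicates 1 and 2 against water replicates 2 and 3. The class II chain and loading genes then had a median difference of -1.22, and 5 of the 7 were lower without overlap, beside 16.1% of all genes. H2-Aa differed by -1.43 and Cd74 by -1.22, with adjusted p-values of 0.352 and 0.303 (limma, 2 against 2 tumors), while H2-Oa differed by 0.01. All 15 class I genes were below 0 as well, with a median of -0.19, and 8 of them were lower without overlap. The largest of these class I differences were -0.79 for Tap1 and -0.61 for Psmb9 (adjusted p = 0.604 and 0.676, limma). With all arrays, 10 of the 15 were above 0. TKI258 replicate 3 held the highest value of 13 of the 15, and water replicate 1 was the lowest water tumor for all 15. Leaving both out thus lowers the TKI258 mean of those 13 genes and raises the water mean of all 15. The tumors that remain are alike in Cd79b because they were kept for it, and the part of B cells was not tested. They were not alike in keratinocyte markers. All 8 were lower in TKI258 tumors without overlap, beside 16.1% of all genes, with a median difference of -2.09. Among them Krt1 differed by -3.53, with an adjusted p of 0.0171 (limma, 2 against 2 tumors). That result depended on leaving out water replicate 1, the lowest water tumor for all 8 markers. Its Krt1 signal was 4.51, against a mean of 4.61 in TKI258 tumors. With all arrays the Krt1 groups overlapped, with a difference of -2.31 and an adjusted p of 0.615 (limma). The part of the cells marked by keratinocyte genes was not tested.

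No dendritic cell or macrophage marker passed the adjusted threshold (limma), and the list means of the groups overlapped. The mean of 12 dendritic cell markers was 6.51, 6.44 and 7.33 in TKI258 tumors and 6.98, 6.82 and 6.76 in water tumors. With all arrays 7 of the 12 were lower and 5 higher in TKI258 tumors, with a median difference of -0.07. Without replicate 3, 10 were lower and 2 higher, with a median of -0.39. TKI258 replicate 3 held the highest value of 10 of the 12, so leaving it out lowers their TKI258 means. The mean of 12 macrophage markers was 9.16, 9.31 and 9.22 in TKI258 tumors and 9.30, 9.86 and 9.41 in water tumors, and all 12 were lower in TKI258 tumors with a median difference of -0.26, or -0.25 without replicate 3. Of the 12 macrophage markers, 1 was highest in TKI258 replicate 3, a place that tumor held for 26.3% of all genes and for all 7 class II chain and loading genes. That marker was Fcgr1, with 8.54, 8.71 and 9.36 in TKI258 tumors and 8.84, 9.17 and 9.25 in water tumors. The part of dendritic cells and macrophages in the class II values was not tested.

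**Figure D5:**
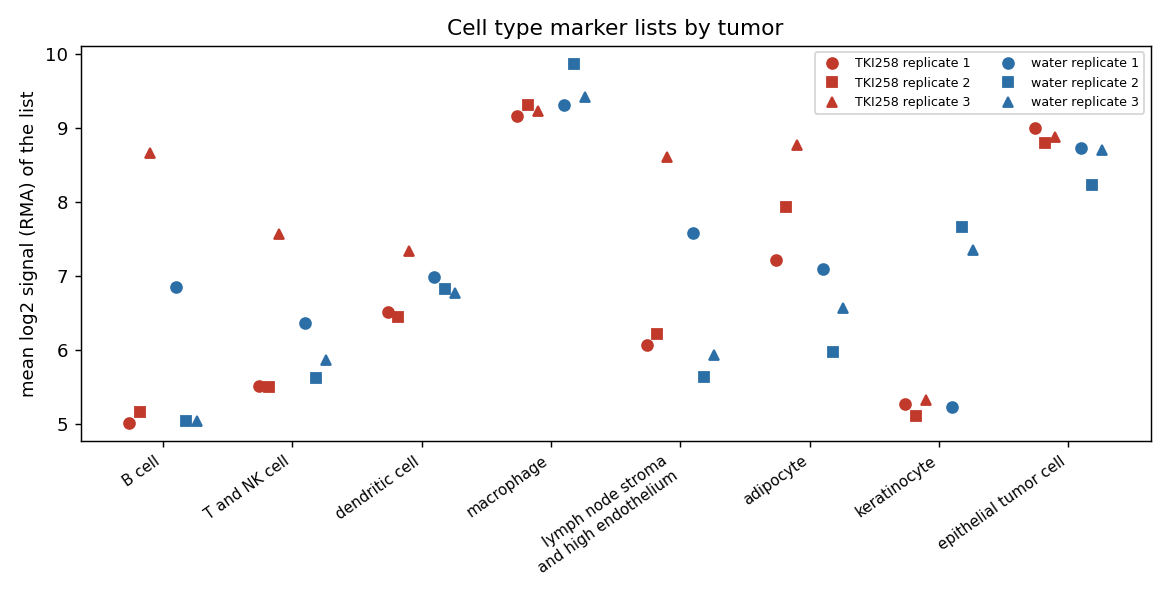
Mean log2 signal (y axis) of each cell type marker list in every tumor, TKI258 tumors left of water tumors, 1 point per tumor. B cell markers average 8.65 in TKI258 replicate 3 and 6.84 in water replicate 1, against 5.01 to 5.16 in the other 4 tumors.

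Markers of adjacent tissue are given as values, since none passed the adjusted threshold with all arrays (limma). The mean of 7 adipocyte markers was 7.21, 7.93 and 8.76 in TKI258 tumors and 7.09, 5.97 and 6.56 in water tumors. Keratinocyte markers (8 measured) averaged 5.26, 5.11 and 5.32 in TKI258 tumors and 5.23, 7.65 and 7.34 in water tumors. The adipocyte means of all TKI258 tumors were above those of all water tumors, as Cd1d1 was, though narrowly, at 7.21 against 7.09. The same held for the epithelial tumor cell means, at 8.79 against 8.72. Groups did not overlap for 5 of 7 adipocyte markers, all higher, and for 2 higher and 1 lower of 8 epithelial markers. Over all genes these shares were 8.66% higher and 6.49% lower. The part of fat tissue or epithelium in the Cd1d1 difference was not tested.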

How the data were processed

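Total RNA from 6 whole tumors was measured on Affymetrix Mouse Gene ST arrays. The deposited values are log2 signals made by the authors with RMA, per the submitters' processing notes. Those notes list affy and limma too, with no version, and the genome build is not given in the sources used here. RMA is a normalization across arrays, so a change shared by most genes would be removed. Gene names came from the platform annotation, in which 21640 of 34760 probe sets named 1 gene, 1321 several and 11799 none. Entrez numbers matched for all 35 measured genes.

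TKI258 was compared with water over all probe sets with limma 3.58.1 in R 4.3.3 (lmFit, eBayes, group only, two-sided, no filter), with Benjamini-Hochberg adjustment over all probe sets and a threshold of 0.05. Errors of differences are moderated SEs, and the number of arrays limits the precision. The steps were tested on simulated data. Promoters were searched in RefSeq windows (GRCm38.p6).

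The genes, lists, tests and the array to leave out were chosen with earlier results of these data known. All 40 genes are named where measured, with the 6 other pathway genes of smallest p. Irf1, H2-Ea, H2-Eb2 and H2-T24 were named after their values were seen. Alternatives were quantile normalization, median centring, a low-signal filter, a replicate block, a trend and robust prior, the mean of a gene's probe sets, another threshold, other class I sets, and arrays left out. Same-numbered tumors had deviations correlated at -0.232, 0.186 and 0.009, so the numbers were not taken as pairs.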

Additional observations from a re-analysis of the deposited data

How the results depend on the processing

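With 3 tumors per group, adjusted p-values of the 35 genes stayed above the threshold under every alternative run, the lowest being 0.303 (limma). The count of genes past it was 0 in each, also at 0.1. With the replicate block the count was 0, and pairing by number was not borne out. The low-signal filter kept 32 of the 35 genes and removed H2-Oa, H2-Ob and Pdcd1lg2. The direction of a difference turned under no alternative for 9 genes and under at least 1 for 26, and the cause was not tested. Under quantile normalization the difference was 0.03 for B2m, 0.04 for Tap1 and 0.04 for Erap1. Without the array of highest Cd79b in each group, differences were -0.08 for H2-Ob, -0.44 for Ciita, -0.04 for Rfx5, -0.25 for H2-M3, -0.06 for Tap2, -0.01 for Tapbp, -0.38 for Tapbpl, -0.02 for Calr, -0.23 for Psmb8, -0.61 for Psmb9, -0.35 for Psmb10, -0.03 for Psme1, -0.19 for Psme2, -0.41 for Nlrc5 and -0.21 for Cd40. With each tumor left out in turn, differences ranged from -1.36 to 0.11 for H2-Aa, -1.15 to 0.19 for H2-Ab1, -1.19 to 0.18 for H2-Eb1, -0.24 to 0.67 for H2-Oa, -0.46 to 0.91 for H2-Ob, -0.44 to 0.25 for H2-DMa, -1.13 to 0.14 for Cd74, -0.64 to 0.62 for Ciita, -0.03 to 0.08 for Rfx5, -0.18 to 0.26 for H2-M3 and -0.09 to 0.06 for B2m. They ranged from -0.54 to 0.36 for Tap1, -0.26 to 0.32 for Tapbpl, -0.18 to 0.11 for Erap1, -0.32 to 0.61 for Psmb9, -0.14 to 0.43 for Psmb10, -0.08 to 0.23 for Psme2, -0.28 to 0.48 for Nlrc5, -0.25 to 0.19 for Cd40, -0.51 to 0.31 for Cd274, -0.60 to 0.17 for Pdcd1lg2 and -0.05 to 0.17 for Batf3. The difference between groups in class I minus class II ranged from -0.10 to 0.74. Over the whole array 0 probe sets passed, except 3 without water replicate 1 and 1, that of Krt1, without the array of highest Cd79b in each group. Cd80 and Cd1d1 kept their direction in each leave-out, with differences of -0.23 to -0.17 and 0.39 to 0.60.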
